A study of Caenorhabditis elegans with 2 samples.

Results

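The weak E-box peaks are places called in MXL-3 immunoprecipitates that fell short of the authors' reproducibility threshold and have the canonical E-box hexamer CACGTG close to their summit. They were chosen by signal rank and by sequence, as the rows of the pooled peak list that are not rows of the thresholded list and whose summit has CACGTG lying wholly within 100 bp on either side in the WBcel235 genome. The pooled list includes background by design, as input for that threshold. Of its 30000 rows, called peaks here, 26065 were below the threshold, and 1767 of these were weak E-box peaks. Signal rank and the presence of the hexamer chose them, so both are described here with no test, and tests are kept to location, neighbouring bases, and the position and number of hexamers in the window. The peaks they are set against are the 625 thresholded peaks with the same hexamer at the same distance, the 24298 below-threshold peaks without it, and the 872 windows with CACGTG found among equal windows placed 500 bp to the side of each below-threshold summit.

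The profiles came from chromatin immunoprecipitation and sequencing with an anti-GFP antibody on whole Caenorhabditis elegans of strain OP745, in which the transgene wgIs745 carries mxl-3::TY1::EGFP::3xFLAG and, as rescue, unc-119(+) in worms mutant for unc-119 (tm4063). The worms were L4 larvae of 48 hours and of pooled male and female sex, synchronised by bleaching and starvation as L1 larvae. There was 1 group with 2 biological replicates, so every comparison is between places in the genome. Signal came from all tissues of the animal at once and from a tagged protein made from an inserted transgene. The authors' lists give each peak a signal value from their peak caller, on a scale the sources used here do not define, which ranks peaks within a list. The number of reads was not used here, and depth is therefore unknown.

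MXL-3 is a basic helix-loop-helix leucine zipper protein of the Max family, whose members bind DNA as dimers and recognise E-boxes, above all the palindrome CACGTG. In C. elegans it is known to repress lysosomal lipase genes in fed animals, where HLH-30, the worm relative of the lysosomal regulator TFEB, acts in the opposite direction on fasting. A peak caller run at a loose setting returns many places of low signal besides the reproducible ones. The irreproducible discovery rate (IDR) sets a threshold from how alike peaks rank in both replicates. In these lists the thresholded peaks were the 3935 of highest pooled signal, so single peaks on either side can rank alike or unlike.

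The stretches below show what a weak E-box peak looks like in sequence. They are 60 bases of the WBcel235 plus strand around the hexamer of weak E-box peaks of high signal, the first 5 outside coding sequence and the last 3 inside it, each named by the gene of the promoter window or else the nearest start. Capitals mark CACGTG. Peaks of similar signal at rips-1, CC8.2 and dpy-5 are not shown, and the stretch at obr-1 is given further on. The stretch at F41C3.2 holds a pair of hexamers separated by a few bases, and the second hexamer of the phdh-1 window lies outside the stretch shown.
F41C3.2, chrII:4747205-4747264: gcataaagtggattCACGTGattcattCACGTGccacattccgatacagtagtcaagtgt
nhr-21, chrII:7342021-7342080: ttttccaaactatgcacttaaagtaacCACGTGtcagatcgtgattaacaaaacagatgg
ugt-43, chrIV:10463397-10463456: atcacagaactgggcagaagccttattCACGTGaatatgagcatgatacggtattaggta
R13H4.5, chrV:11857750-11857809: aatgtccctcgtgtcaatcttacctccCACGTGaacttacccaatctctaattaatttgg
F46G10.1, chrX:13311855-13311914: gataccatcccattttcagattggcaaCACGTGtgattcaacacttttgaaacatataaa
pqn-39, chrX:13966326-13966385: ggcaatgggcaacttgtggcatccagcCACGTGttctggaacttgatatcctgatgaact
phdh-1, chrII:13638152-13638211: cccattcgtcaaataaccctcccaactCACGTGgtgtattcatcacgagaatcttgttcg
T10G3.3, chrV:13488689-13488748: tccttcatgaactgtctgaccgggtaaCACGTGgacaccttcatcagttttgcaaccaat

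The highest-signal weak E-box peak lay in coding sequence of wrt-1, a gene of the hedgehog-related warthog family, with its summit on chromosome II at 7531762, 766 bp downstream of the nearest start. It had a pooled signal of 91.1 and rank 3938, and signals of 42.8 in replicate 1 and 49.6 in replicate 2. Its whole 201-base window is shown because it holds 2 hexamers, with the nearer one centred 10.5 bp from the summit.
wrt-1, chrII:7531662-7531862: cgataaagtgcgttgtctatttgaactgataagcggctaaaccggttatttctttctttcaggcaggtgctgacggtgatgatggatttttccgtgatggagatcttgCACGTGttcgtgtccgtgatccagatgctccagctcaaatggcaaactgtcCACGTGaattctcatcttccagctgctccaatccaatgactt

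Among the 20 weak E-box peaks of highest signal, several lay in or beside genes of known function. The intronic peak of nhr-21, a nuclear hormone receptor gene, had a pooled signal of 90.5, with 38.9 in replicate 1 and 49.6 in replicate 2. The peak in coding sequence of dpy-5, a cuticle procollagen gene, had a pooled signal of 90.6 and that in col-111, a collagen gene, 89.6. The peak in coding sequence of phdh-1, which encodes a phosphoglycerate dehydrogenase of serine synthesis, had 90.0. Signals were 90.2 for the peak at -1240 bp from the start of ugt-43, a UDP-glucuronosyltransferase gene, and 89.8 for that shared by the promoter windows of mocs-1 and nkat-3. The 2 replicates differed most at some of these: the peak at T10G3.3 had a signal of 59.8 and rank 2056 in replicate 1, against 28.7 and rank 13102 in replicate 2. At skn-1, which encodes a regulator of oxidative stress and detoxification genes, the intronic peak had a pooled signal of 89.0, with 28.0 in replicate 1 (rank 8796) and 64.2 in replicate 2 (rank 2959). The remaining peaks of the 20 were at F41C3.2, pqn-39, rips-1 with R08E5.1, CC8.2, R13H4.5, obr-1, F46G10.1, cnt-2, C38H2.2, mdl-1 and ZC395.5, with signals of 88.8 to 91.0.

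Peaks just inside and just outside the threshold were alike in signal, as a cut by pooled signal makes them. The 3 weak E-box peaks next to it, at wrt-1, F41C3.2 and pqn-39, had pooled signals of 91.1, 91.0 and 90.8. The 3 thresholded E-box peaks next to it lay at -2592 bp from the start of acs-2 with 91.3, in the promoter window of sgca-1 with 91.5, and at -1410 bp from gfi-2 with 91.5. Replicates were also uneven on that side: the acs-2 peak had a signal of 28.3 in replicate 1 and 63.4 in replicate 2, and the sgca-1 peak 64.3 in replicate 1 and 28.6 in replicate 2. Over all weak E-box peaks the signal ran from 29.3 to 91.1 with a median of 43.6, and over the thresholded E-box peaks from 91.3 to 1445 with a median of 170. All weak E-box peaks were 376 bp wide. Only 160 of the 1767 (9.05%) had a deposited −log10 q of 1.30 or more, which is a q-value of 0.05 or less, against all 625 thresholded E-box peaks and 1384 (5.70%) of the below-threshold peaks without CACGTG.

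The hexamer stood at 6.78% of below-threshold summits (95% interval 6.48 to 7.09%), against 3.35% (3.13 to 3.57%) of the windows 500 bp to the side. In flank windows centred 1000 bp away the share was 4.18%. At the thresholded summits the share was 15.9%. Among below-threshold peaks 1690 had the hexamer at the summit only and 795 at the flank only. The summit count is that of the weak E-box peaks themselves, so these shares describe the below-threshold list and carry no test. Every interval and p-value here treats peaks as independent and covers counting error only.

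The excess of the hexamer declined with rank on both sides of the threshold. In the last 935 thresholded peaks, ranks 3001 to 3935, the share with CACGTG was 11.3% (9.38 to 13.5%), and in ranks 3936 to 5000, the first below the threshold, it was 9.86% (8.13 to 11.8%). It was 9.04% in ranks 5001 to 7500, 7.20% in ranks 7501 to 10000 and 7.10% in ranks 10001 to 15000. In the last 5000 peaks, ranks 25001 to 30000, the share was still 5.70% (5.07 to 6.38%) at summits against 3.06% (2.60 to 3.58%) at flanks. The flank share stayed between 3.06 and 3.50% in every bin below the threshold, while the ratio of summit to flank was 2.92 in ranks 3936 to 5000 and 1.69 to 1.86 in the 3 bins beyond rank 15000.

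**Figure D1:**
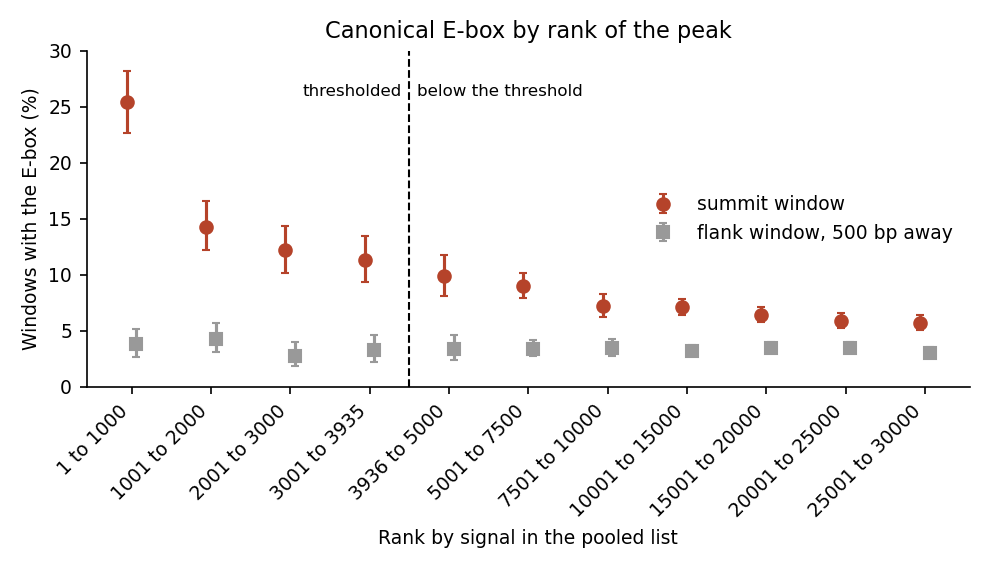
Share of peaks with CACGTG within 100 bp of the summit (circles) and in an equal window 500 bp to the side (squares), in percent with exact 95% intervals, by rank in the pooled list; the dashed line is the authors' threshold. Circles decline across the line without a step, at 11.3% just before and 9.86% just after it, and stay above the squares down to ranks 25001 to 30000.

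Summits were richer in G and C than their flanks, with a median of 41.8% GC in the 201-base windows at below-threshold summits against 35.8% at their flanks. The 101 other hexamers that have the bases of CACGTG in another order, each counted with its reverse complement, were counted in the same windows for comparison at equal base composition. Their ratio of summit to flank had a median of 1.31 and a highest value of 1.67, for CGTACG, against 2.03 for CACGTG, and 0 of them were higher. CACGTG also had the highest ratio among the 13032 below-threshold peaks of higher signal (2.26, others up to 2.00) and the 13033 of lower signal (1.79, others up to 1.56). The same held for peaks with summit and flank both in coding sequence (1.78, others up to 1.52) and both outside it (1.99, others up to 1.89). These ratios are descriptions of the list and carry no test. Some of the other hexamers can share bases with a CACGTG site, as ACGTGC does in CACGTGC. Their counts are therefore not independent of it. The other hexamers were not counted in flank windows 1000 bp away. CACGTG stood in 4.18% of those windows, so its ratio of summit to flank was lower there.

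Within the window the hexamer of a weak E-box peak was less central than that of a thresholded one and more central than in flank windows. It lay wholly within 50 bp of the summit in 1001 of 1767 weak E-box peaks (56.6%, 54.3 to 59.0%), against 446 of 625 thresholded E-box peaks (71.4%, 67.6 to 74.9%; two-sided Fisher's exact test, adjusted p = 1.7e-10 by Benjamini-Hochberg over 14 tests). Of the 872 flank windows with CACGTG 421 had it within 50 bp of the window's centre (48.3%, 44.9 to 51.7%), 8.37 percentage points fewer than weak E-box peaks (Fisher's exact test, adjusted p = 7.1e-05). With a window of 50 bp and a centre of 25 bp that difference from flank windows was 2.31 points and no longer passed (Fisher's exact test, adjusted p = 0.485), and in the list of replicate 1 alone it was 4.50 points (adjusted p = 0.0318, same test). For the list of 1 replicate alone, here and below, its 3935 peaks of highest signal stood for the thresholded ones. The median distance of the hexamer's middle from the centre was 41.5 bp in weak E-box peaks, 28.5 bp in thresholded ones and 49.5 bp in flank windows. A hexamer placed evenly along the window would lie within 50 bp in 49.0% of windows. The central share varied with rank. It was 65.1% in the last thresholded peaks, ranks 3001 to 3935, and 74.3% in the 105 weak E-box peaks of ranks 3936 to 5000. Further down it was 58.8% in ranks 5001 to 7500, 51.1% in ranks 7501 to 10000 and 59.5% in ranks 20001 to 25000. These shares by rank were not tested.

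**Figure D2:**
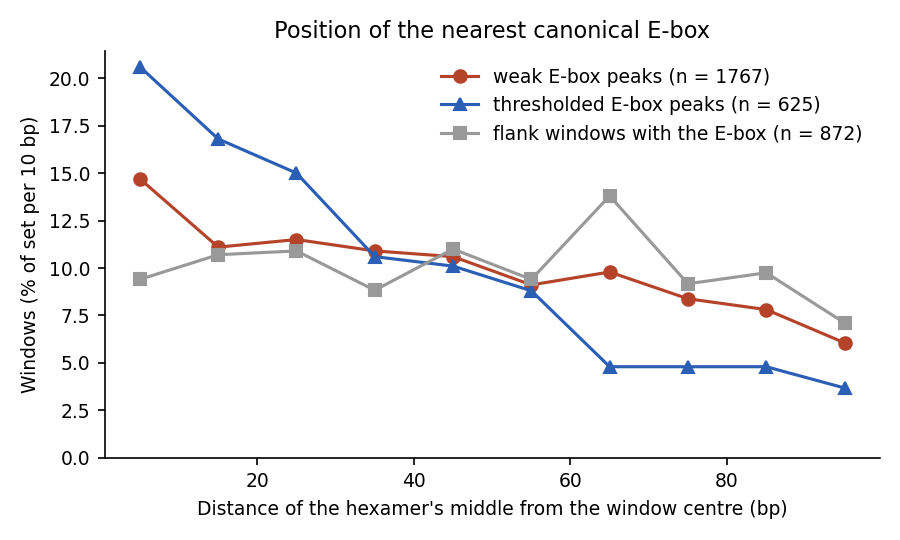
Distance of the middle of the nearest CACGTG from the window centre, in bp, against the share of each set per 10 bp, for 1767 weak E-box peaks (circles), 625 thresholded E-box peaks (triangles) and 872 flank windows (squares). The weak E-box peaks have a shallow excess at the centre, with 14.7% in the first 10 bp, below that of thresholded E-box peaks.

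More than 1 hexamer was found in 102 weak E-box peaks (5.77%, 4.73 to 6.96%), against 52 thresholded E-box peaks (8.32%, 6.28 to 10.8%; Fisher's exact test, adjusted p = 0.0340). Of the weak windows 97 held 2 hexamers and 5 held 3. The difference was lost in several other settings, among them either replicate's list alone, split by its own signal as described above. There the adjusted p of Fisher's exact test was 0.104 without replicate 1 and 0.293 without replicate 2. In all, 1874 of the 17729 CACGTG sites of the genome (10.6%) lay in the window of a weak E-box peak and 680 (3.84%) in that of a thresholded one, with 0 sites in both. The other 15175 sites (85.6%) were not within 100 bp of any summit of the pooled list.

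Weak E-box peaks lay mainly inside genes. The summit was in coding sequence in 781 (44.2%, 41.9 to 46.6%), against 32 thresholded E-box peaks (5.12%, 3.53 to 7.15%; Fisher's exact test, two-sided, adjusted p = 1.3e-84). It was outside protein-coding genes in 445 (25.2%, 23.2 to 27.3%), against 362 thresholded ones (57.9%, 53.9 to 61.8%; Fisher's exact test, adjusted p = 1.7e-47). Introns held 475 weak E-box peaks (26.9%) and 196 thresholded ones (31.4%), and UTRs and other exons the few that remained. The promoter window, from 1000 bp upstream to 200 bp downstream of a start of any transcript of a protein-coding gene, held 495 weak E-box peaks (28.0%, 25.9 to 30.2%), against 290 thresholded ones (46.4%, 42.4 to 50.4%; Fisher's exact test, adjusted p = 4.5e-16).

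Against the below-threshold peaks without CACGTG the differences were smaller. Coding sequence held 44.2% of weak E-box peaks and 38.2% (37.6 to 38.8%) of these (Fisher's exact test, adjusted p = 1.2e-06), and sequence outside protein-coding genes 25.2% and 31.7% (adjusted p = 1.1e-08, same test). The hexamer itself lies often in coding sequence: 37.8% of all genomic CACGTG sites and 33.6% of the flank windows with CACGTG did, where coding sequence makes up 24.6% of the genome. The part that this distribution has in the difference from peaks without the hexamer was not tested. With soft-masked hexamers left out the coding share of weak E-box peaks was 10.2 points higher (Fisher's exact test, adjusted p = 2.0e-15). In the list of replicate 2 alone the shares outside protein-coding genes were 29.6% and 33.2% (Fisher's exact test, adjusted p = 0.00356). Promoter windows held 28.0% of weak E-box peaks and 29.4% of peaks without the hexamer, a difference of -1.38 points that did not pass (Fisher's exact test, adjusted p = 0.240), beside 27.6% of all genomic sites and the 26.2% of the genome that they cover. In the list of replicate 1 alone the difference was -2.90 points and passed (Fisher's exact test, adjusted p = 0.0115).

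Location moved with signal within the weak E-box peaks. In the 442 of highest signal, 56.8 to 91.1, 33.0% (28.7 to 37.6%) lay in coding sequence and 31.4% (27.1 to 36.0%) outside protein-coding genes. In the 442 of lowest signal, 29.3 to 35.6, the shares were 49.1% (44.3 to 53.9%) and 22.4% (18.6 to 26.6%). By rank, coding sequence held 12.3% of E-box peaks in ranks 3001 to 3935, 23.8% in ranks 3936 to 5000, 34.1% in ranks 5001 to 7500 and 48.4% in ranks 25001 to 30000. Peaks without the hexamer changed in the same way, with 13.3% in coding sequence in ranks 3936 to 5000 and 42.1% in ranks 25001 to 30000. Of the below-threshold summits in coding sequence 7.77% had CACGTG, against 3.99% of flank windows there, of intronic summits 7.21% against 3.15%, and of summits outside protein-coding genes 5.45% against 3.07%.

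**Figure D3:**
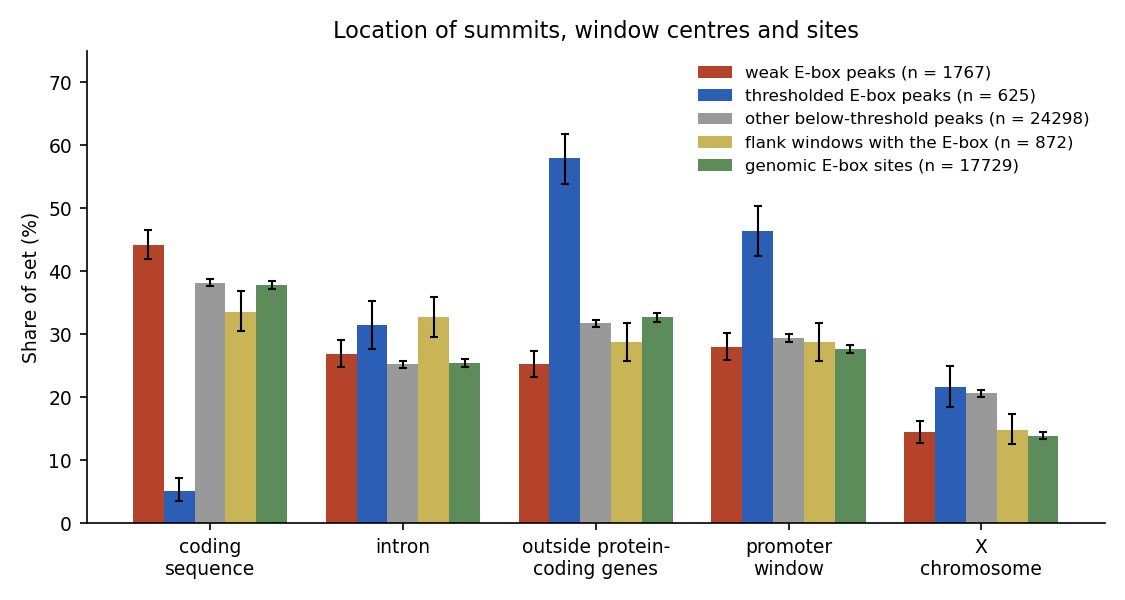
Share of each set, in percent with exact 95% intervals, with its summit, window centre or site in coding sequence, introns, sequence outside protein-coding genes, promoter windows and on the X chromosome. The weak E-box peaks (first bar of each group) stand at 44.2% in coding sequence, where thresholded E-box peaks stand at 5.12% and all genomic sites at 37.8%.

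The X chromosome held 255 weak E-box peaks (14.4%, 12.8 to 16.2%), against 135 thresholded E-box peaks (21.6%; Fisher's exact test, two-sided, adjusted p = 7.1e-05) and 20.6% (20.1 to 21.1%) of the below-threshold peaks without CACGTG (Fisher's exact test, adjusted p = 2.9e-10). For summits outside coding sequence the X shares of weak and thresholded E-box peaks were 17.3% and 21.8% (Fisher's exact test, adjusted p = 0.0408). X is poor in the hexamer, with 139 sites per Mb where the autosomes had 171 to 223, and it held 13.9% of all genomic sites. The ratio of summit to flank share on X was 1.98, within the range of 1.84 on chromosome I to 2.24 on chromosome IV. Counted per Mb, weak E-box peaks were densest on chromosome I (20.8) and sparsest on X (14.4). The mxl-3 locus is part of the transgene, and 3 weak E-box peaks lay within 20 kb of it.

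The bases beside the hexamer differed from those at other genomic sites. T preceded CACGTG on at least 1 strand at 652 of 1874 sites of weak E-box peaks (34.8%, 32.6 to 37.0%), against 6177 of the 15175 sites near no peak (40.7%, 39.9 to 41.5%; Fisher's exact test, two-sided, adjusted p = 1.2e-06). At the sites of thresholded E-box peaks the share was 37.4% (33.7 to 41.1%), and the difference of -2.56 points did not pass (Fisher's exact test, adjusted p = 0.242); its sign turned when sites in coding sequence (2.85) and outside it (3.89) were compared apart, neither of which passed. The symmetric octamer TCACGTGA made up 5.02% (4.07 to 6.10%) of weak sites, 7.06% (5.25 to 9.25%) of thresholded sites and 7.41% of sites near no peak. The octamer CCACGTGG made up 19.1% (17.3 to 21.0%) of weak sites, 11.0% (8.77 to 13.6%) of thresholded sites and 16.9% (16.3 to 17.5%) of sites near no peak. The palindrome ACACGTGT was at 7.10% of weak and 8.82% of thresholded sites.

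A repeated sequence was present at part of these sites. The most frequent extension of the hexamer in the genome, over the 5 bases that follow it on either strand, was CACGTGGTGTC, found at 1294 sites where the next most frequent, CACGTGGTGCC, had 430. Of its 1294 copies 131 (10.1%) lay in windows of weak E-box peaks and 19 (1.47%) in those of thresholded ones, where all genomic sites had 10.6% and 3.84%. The extended hexamer made up 6.99% (5.88 to 8.24%) of the sites of weak E-box peaks, 2.79% (1.69 to 4.33%) of thresholded sites, 10.9% (8.91 to 13.1%) of flank-window sites and 7.30% of all sites. The copies were the nearest hexamer of 120 weak E-box peaks, 72 in introns, 38 outside protein-coding genes and 5 in coding sequence, with signals of 29.4 to 89.8 and a median of 40.5. A pair of them is shown because they carry the extension on opposite strands, chosen after their values were seen. The summit at obr-1, an oxysterol-binding protein gene, was in an intron with a signal of 89.8. That named by C39B5.2 was in coding sequence, where few of the 120 lay, with 76.6. Both signals were well above the median of the 120.
obr-1, chrIII:11262596-11262655: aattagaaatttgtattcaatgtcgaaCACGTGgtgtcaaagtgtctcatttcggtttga
C39B5.2, chrIII:2236663-2236722: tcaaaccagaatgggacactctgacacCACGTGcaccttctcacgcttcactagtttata

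Repeats were also counted by the soft-masking (lower case) of the RefSeq WBcel235 sequence. It covered 185 of the 1874 sites of weak E-box peaks (9.87%, 8.56 to 11.3%), against 28 of 680 thresholded sites (4.12%, 2.75 to 5.90%), 16.8% (14.4 to 19.4%) of flank-window sites and 12.8% of all sites. Of the extended hexamers 90.0% were masked. Among weak E-box peaks the masked share was 17.0% for summits outside coding sequence and 1.18% inside it. With masked hexamers left out, 1604 weak E-box peaks remained and the share with CACGTG was 6.15% at summits against 2.80% at flanks. The extension and the masking were looked at after other values of these data had been seen, and their shares carry no test.

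A GA repeat and the GATA-type motif, both frequent at thresholded peaks, were scarcer at weak E-box peaks. GAGAGAGA or its reverse complement TCTCTCTC, searched on both strands within the same 100 bp, stood in 23 weak windows (1.30%, 0.827 to 1.95%), in 10.7% (8.40 to 13.4%) of thresholded E-box windows, in 12.7% of thresholded windows without CACGTG and in 3.31% (3.09 to 3.54%) of below-threshold windows without it. TGATAA or TTATCA, the core recognised by GATA factors, stood in 17.8% (16.0 to 19.6%) of weak windows, in 36.5% (32.7 to 40.4%) of thresholded E-box windows, in 25.9% of thresholded windows without CACGTG and in 19.4% (18.9 to 19.9%) of below-threshold windows without it. TGATAA can share 2 bases with CACGTG, and the GA repeat 1 base. In flank windows with CACGTG the GA repeat stood in 0.573% (0.186 to 1.33%) and the GATA-type motif in 14.9% (12.6 to 17.4%). Both shares were below those of weak windows, with intervals that overlap. Of the other E-boxes, CACATG stood in 10.6% of weak, 13.4% of thresholded E-box and 7.34% of flank windows. The shares in the same order were 10.8%, 12.3% and 8.03% for CAAGTG, 8.72%, 6.08% and 4.13% for CACCTG, and 5.89%, 6.08% and 3.67% for CAGCTG. A match says only that the letters are in the window.

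**Figure D4:**
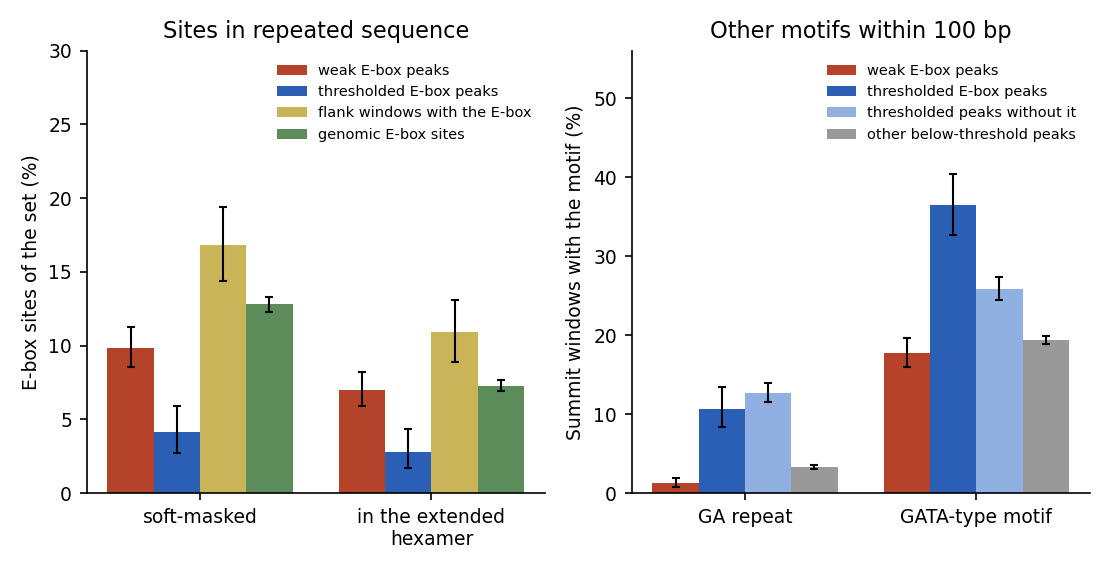
Left, share of CACGTG sites that are soft-masked or carry the extended hexamer; right, share of summit windows with the GA repeat or the GATA-type motif, both in percent with exact 95% intervals. The weak E-box peaks lie above thresholded E-box peaks in the left panel (9.87% against 4.12% masked) and below them in the right one (17.8% against 36.5% for the GATA-type motif).

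The replicates matched at fewer of the weak E-box peaks than of the thresholded ones. A summit of the replicate 1 list lay within 100 bp of 1158 of the 1767 (65.5%) and one of the replicate 2 list of 1215 (68.8%), with both for 747 (42.3%, 40.0 to 44.6%) and neither for 141 (7.98%). Among thresholded E-box peaks 609 of 625 (97.4%) had both, and among below-threshold peaks without CACGTG 35.7% (35.1 to 36.3%). The pooled list was made from both replicates and the threshold from their ranks, so these shares describe the choice of peaks. Of the 997 weak E-box peaks of higher signal 66.1% were matched in both lists, beside 61.3% of the peaks without CACGTG in that signal range, and of the 770 of lower signal 11.4%, beside 10.5%. A rank within the top 3935 of exactly 1 replicate list was found for 101 weak E-box peaks (5.72%, 4.68 to 6.90%), beside 865 below-threshold peaks without CACGTG (3.56%), and within the top 3935 of both for 1 weak E-box peak and 4 of those without.

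Where both lists had a match, the replicate signals were loosely related. They ran from 14.6 to 64.2 with a median of 24.4 over the 1158 matches in replicate 1, and from 18.2 to 71.5 with a median of 28.3 over the 1215 in replicate 2. Spearman's rho over the 747 weak E-box peaks with both was 0.298, against 0.838 over 609 thresholded E-box peaks and 0.270 over 8663 below-threshold peaks without CACGTG. The weak E-box peaks span a narrow band of pooled signal, and the value is a description across peaks of the same libraries.

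**Figure D5:**
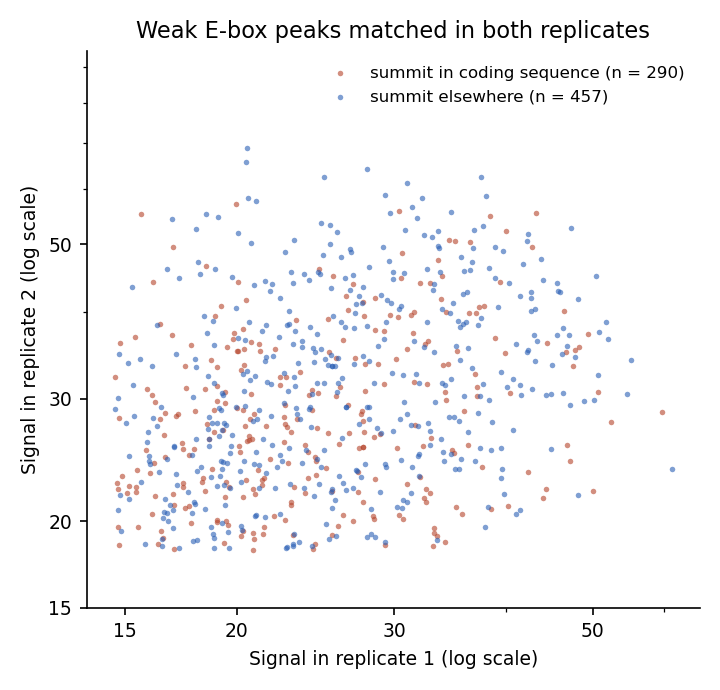
Signal in replicate 2 against signal in replicate 1, both on log scales, for the 747 weak E-box peaks matched in both replicate lists, coloured by whether the summit was in coding sequence (290) or elsewhere (457). The points form a broad cloud with a weak slope in which both colours overlap.

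Distances from thresholded peaks were set beside those of the other below-threshold peaks. An overlap with a thresholded peak was found for 28 (1.58%, 1.06 to 2.28%), against 1.64% (1.48 to 1.81%) of below-threshold peaks without CACGTG, and a thresholded summit within 1 kb for 158 (8.94%, 7.65 to 10.4%), against 7.76% (7.43 to 8.11%). Within 5 kb the shares were 39.3% and 38.3%. The median distance to the nearest thresholded summit was 7271 bp for weak E-box peaks and 7744 bp for those without the hexamer. Another weak E-box peak lay within 1 kb of 99 (5.60%). The nearest start of a protein-coding gene was 1118 bp away at the median, and it was over 2000 bp away for 532 (30.1%).

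Of 19973 protein-coding genes 526 (2.63%) had a weak E-box summit in their promoter window, and 86 of these (16.3%) also had a thresholded summit there, where 2259 of all genes (11.3%) did. Both were present at nhr-21, whose weak promoter summit at -95 bp from the start had a pooled signal of 75.4, with 37.5 in replicate 1 and 39.1 in replicate 2. Both were also present at hif-1, the hypoxia-inducible factor gene, whose weak summit in coding sequence, at -567 bp from the assigned start, had a pooled signal of 64.6 with 44.3 and 22.2 in replicates 1 and 2. At acs-2, an acyl-CoA synthetase gene of fatty acid oxidation, a weak summit 22 bp downstream of the start had a pooled signal of 62.3; it matched no peak of replicate 1 and one of 41.0 in replicate 2. Thresholded summits were also in the promoter windows of nhr-168, aak-2, akt-2 and acs-2. A further thresholded E-box summit of acs-2 lay at -2592 bp, as given above.

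The Max network holds the factors related to MXL-3 by family or by shared targets. In it 0 of 6 genes had a weak E-box summit in the promoter window. That count allows up to 45.9% (upper 95% bound), beside 2.63% of all genes. A thresholded summit was there for 4 of the 6, mxl-3, mdl-1, mml-1 and hlh-30, beside 11.3% of all genes. The mxl-3 locus is part of the transgene, so signal there from the inserted copies cannot be told apart. The nearest weak E-box peak for mdl-1, a Mad-like gene, was 1217 bp from a start with a pooled signal of 66.9. A second one at -2797 bp had 89.0, with 45.6 in replicate 1 and 44.0 in replicate 2. For hlh-30 the nearest was 1739 bp away with a signal of 30.1, and for mxl-3 itself 13647 bp away with 36.8. For mml-1, the Mondo-like partner of MXL-2, it was 17165 bp away with 76.1, for mxl-2 28267 bp away with 84.9 and for mxl-1 71807 bp away with 40.7. Of these genes mdl-1 had 3 hexamers in its promoter window and mml-1 and mxl-3 had 1 each. The windows of mxl-1, mxl-2 and hlh-30 held 0, which leaves little room for a weak E-box summit there. The upper bound above does not take this into account.

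Of 8 lysosomal lipase genes 0 had a weak E-box summit in the promoter window, which allows up to 36.9% beside 2.63% of all genes. A thresholded summit was there for 3, lipl-1, lipl-2 and lipl-5, beside 11.3% of all genes. The nearest weak E-box peak was 449 bp from a start for lipl-4 with a signal of 37.6, 765 bp for lipl-7 with 30.2 and 770 bp for lipl-5 with 48.5. These lay downstream of the starts, beyond the 200 bp that the promoter window covers there. The nearest one lay 3613 bp from lipl-2 with 77.6, and 9083 to 38991 bp from lipl-1, lipl-3, lipl-6 and lipl-8 with 35.0 to 49.8. The promoter windows of lipl-1, lipl-2, lipl-3 and lipl-5 each held 1 CACGTG and that of lipl-7 held 2. Those of lipl-4, lipl-6 and lipl-8 held 0, which the upper bound of 36.9% does not take into account.

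In the other lists 0 to 6 genes had a weak E-box summit in the promoter window, and every interval includes the 2.63% of all genes. Weak E-box summits were in the promoter windows of 2 of 27 autophagy genes (7.41%, 0.910 to 24.3%), atg-3, the E2-like enzyme of lipid conjugation, with a signal of 49.9 and epg-9, a component of the initiation complex, with 41.6. Of 30 lysosomal enzyme and membrane genes 1 had one (3.33%, 0.0844 to 17.2%), gba-1, a glucocerebrosidase gene, with 37.4. Of 35 fat metabolism genes 2 did (5.71%, 0.700 to 19.2%), acs-2 and the omega-3 desaturase gene fat-1, whose summit at -184 bp from the start had 61.6. Of 20 genes of insulin, TOR and AMPK signalling 2 did (interval 1.23 to 31.7%), aak-2, a catalytic AMPK subunit gene, with 58.5 and the kinase gene akt-2 with 51.7. The count was 0 of 21 for the vacuolar ATPase and 0 of 18 for endoplasmic reticulum stress and chaperones, which allow up to 16.1% and 18.5% (upper 95% bound).

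Among 34 other basic helix-loop-helix genes hif-1 alone had a weak E-box summit in the promoter window (2.94%). Of 269 nuclear hormone receptor genes 6 did (2.23%, 0.823 to 4.79%), led by nhr-21 with 75.4, nhr-168 with 74.7, nhr-121 with 46.3 and nhr-203 with 37.6. Of 78 cytosolic ribosomal protein genes 3 did (3.85%, 0.800 to 10.8%), rpl-31 with 87.7, rps-7 with 33.2 and rps-11 at rank 12491. Thresholded summits were in the promoter windows of 36 of those 78 ribosomal genes, of 48 of the 269 receptor genes and of 15 of the 18 stress and chaperone genes. With genes assigned by the nearest start within 2000 bp, 1161 genes (5.81%) had a weak E-box peak. Among them were 2 of the 6 Max network genes (33.3%), hlh-30 and mdl-1. There were also 3 of the 8 lipase genes (37.5%), lipl-4, lipl-5 and lipl-7. These were the highest shares of the 11 lists, and both lists are small. In the other lists the share ran from 1 of 34 other basic helix-loop-helix genes (2.94%) to 4 of 20 signalling genes. It was 6.69% for nuclear hormone receptor genes, 7.41% for autophagy genes and 9.52% for vacuolar ATPase genes. No interval was made for these shares, and their difference from all genes was not tested.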

How the data were processed

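The data are peak lists from 2 biological replicates of 1 group. Per the file listings, each replicate list, a pooled list and the IDR-thresholded list were made by the authors on ce11, whose sequence is that of WBcel235; no caller, aligner or control strain is given in the sources used here. The deposited signal is the authors' value per peak on an undefined scale, and it ranks peaks within a list. The deposited −log10 q-value of each peak was counted at 0.05. The 3935 thresholded peaks were the 3935 highest of the pooled list. Sonicated fragments were 200 to 800 bp, per the labels.

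CACGTG was searched in the RefSeq WBcel235 sequence within 100 bp of each summit and of a point 500 bp to its left or right, the side being drawn at random once. Locations came from protein-coding genes of Ensembl release 115, with coding sequence taken before UTRs, these before other exons and those before introns. Positions are 1-based. Replicate summits within 100 bp were matched. An exact McNemar test and 13 Fisher's exact tests, two-sided, were adjusted by Benjamini-Hochberg over all 14 with a threshold of 0.05; the McNemar test used the hexamer that chose the peaks, and its p is not given. Intervals are exact Clopper-Pearson at 95%. Peaks, gene lists and tests were chosen with earlier results of these data known. Genes named are those of the 20 weak E-box peaks of highest signal, of the 3 on each side of the threshold, up to 4 per list, and all of the Max network and lipase lists. Depth is unknown. The software was scipy 1.17.1 with pandas 2.3.3, numpy 2.4.6 and matplotlib 3.10.9 under Python 3.11.15.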

Additional observations from a re-analysis of the deposited data

How the results depend on the processing

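The number of weak E-box peaks was 1001 with a 50 bp window, 2852 with a 200 bp window, 997 among the below-threshold peaks of higher signal, 986 outside coding sequence and 781 inside it, and 1669 to 1798 with 1 replicate's list alone. The coding, outside-gene and X shares against peaks without the hexamer, and the T before the hexamer against sites without a peak, kept their direction and their side of the threshold in every alternative run for them. With 1 replicate's list alone, its 3935 peaks of highest signal stood for the thresholded ones. Differences below are in percentage points, weak E-box peaks first. The promoter difference from peaks without the hexamer passed with a 200 bp window (-2.23) and ranged from -2.90 to -1.28 with 1 replicate's list alone, passing with that of replicate 1. For summits in coding sequence it was 0.816, and those from the 32 thresholded E-box peaks there, -10.1 for promoters, -7.99 for X, -20.4 for the central hexamer and -4.69 for more than 1 hexamer, did not pass; few peaks were compared. The central hexamer against flank windows did not pass in coding sequence (9.10) or with a 50 bp window (2.31). More than 1 hexamer did not pass with windows of 50 bp (-2.01) or 200 bp (-0.584), for peaks of higher signal (-2.20) or with 1 replicate's list (-2.05 to -1.34). T before the hexamer, against thresholded sites, was 2.99 with a 50 bp window, 3.89 outside coding sequence and 2.85 inside it, -4.54 and past the threshold with a 200 bp window, and -2.47 to -0.394 with 1 replicate's list. The cause of these changes was not tested. The splits by coding sequence and the masking were added after the data were seen. By nearest start, 9 of 11 gene lists moved in count. No paired analysis was possible because both replicates belong to 1 group, with no other samples to pair them with. Read depth is unknown, so what depth limits cannot be stated.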

Other observations

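Small RNA genes and pseudogenes within 200 bp of the summit were counted beside the other sets. A tRNA gene lay there for 7 weak E-box peaks (0.396%), 6 thresholded E-box peaks (0.960%) and 244 below-threshold peaks without CACGTG (1.00%). A snoRNA gene lay there for 4 weak E-box peaks (0.226%), 5 thresholded ones (0.800%) and 85 without the hexamer (0.350%). For piRNA genes the shares were 0.792% of weak E-box peaks, 0.800% of thresholded ones and 0.745% of those without the hexamer. A miRNA gene lay there for 3 weak E-box peaks, 1 thresholded one and 51 without the hexamer. A pseudogene lay there for 34 weak E-box peaks (1.92%), 2 thresholded ones (0.320%) and 700 without the hexamer (2.88%). These counts were not tested.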
